A study of Mus musculus with 6 samples.

Results

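The 9 genes described here, Acod1, Cs, Idh2, Idh3a, Sdha, Sdhb, Sdhc, Sdhd and Slc25a1, form the stretch of the TCA cycle that makes citrate, exports it, diverts it to itaconate and oxidizes isocitrate and succinate. They were chosen by gene symbol, and all 9 were found among the 54532 genes measured. RNA-seq was performed on immortalized mouse bone marrow-derived macrophages (iBMDMs), a cell line grown from bone marrow of WT mice, in 3 control and 3 PGAM5 KD libraries. Control cells carried a control shRNA and PGAM5 KD cells an shRNA against Pgam5, each delivered by a lentivirus, and both groups were treated with LPS at 100 ng/ml for 4 hours in high-glucose medium with pyruvate and glutamine. All libraries therefore came from LPS-treated cells, and an effect of the knockdown and an off-target effect of the shRNA cannot be told apart.

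In the TCA cycle, citrate synthase joins acetyl-CoA and oxaloacetate into citrate in the mitochondrial matrix, aconitase converts citrate to isocitrate through cis-aconitate, and isocitrate dehydrogenases oxidize isocitrate to 2-oxoglutarate. Macrophages exposed to LPS are known to draw citrate out to the cytosol for lipid synthesis and to make itaconate from cis-aconitate. Itaconate is a competitive inhibitor of succinate dehydrogenase, complex II of the respiratory chain, which oxidizes succinate to fumarate.

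After LPS, 3 of the 9 genes were higher in PGAM5 KD than in control iBMDMs. They were Slc25a1, the mitochondrial citrate carrier, at 1.34 times the control FPKM, Acod1, the enzyme that makes itaconate, at 1.22 times, and Sdhd, a membrane anchor of complex II, at 1.21 times. Sdha, the subunit of complex II that holds the succinate site, was lower at 0.937 times, a call that was lost without any 1 of the 6 libraries. The other 5, Cs, Idh3a, Idh2, Sdhb and Sdhc, did not pass the test. The values are FPKM, fragments per kilobase of exon scaled to library depth. Comparisons of level between genes therefore rest on the annotated exon length of each gene. The test was limma on log2(FPKM + 1), and a gene was called at an adjusted p-value under 0.05. By this rule 31.7% of the 10540 genes tested were called, 16.8% higher and 14.9% lower, so the 4 of 9 called here (44.4%) stand beside a wide background. None of the 9 reached an absolute log2 fold change of 1, which 1.32% of tested genes did together with the adjusted p-value. The groups did not overlap for the same 4 genes, as for 47.1% of all tested genes. The median log2 fold change was 0.04 over the 9 genes and 0.01 over all tested genes.

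The knockdown was visible in every library, with Pgam5 at 17.1, 12.97 and 13.4 FPKM in control and 4.33, 5.75 and 4.53 FPKM in PGAM5 KD libraries (log2 fold change -1.40, SE 0.13, adjusted p = 0.00036). PGAM5 KD replicate 1 stood further from the other libraries of its group (chi-square per degree of freedom 8.08 and 8.83) than the other pairs of a group stood from each other (5.01 to 5.68), all above the value of about 1 that counting error gives. Recovered depth ran from 18163463 to 24388917 fragments per library. The FPKM sum over all genes came to 304393 to 304889 in the control group and to 317936 to 324298 in the PGAM5 KD group. Of 8 macrophage markers, 7 were expressed and Mertk was listed at 0 in every library. All 7 differed between the groups, with a median log2 fold change of 0.56. The 4 higher were Fcgr1, Adgre1, Itgam and Cd14 (3.25, 1.91, 1.85 and 1.48 times the control FPKM). The 3 lower were Csf1r, Lyz2 and Cd68 (0.639, 0.760 and 0.868 times). The summed level of the markers was 2802 to 2894 FPKM in control and 2526 to 2544 FPKM in PGAM5 KD libraries. The largest part of the sum was Lyz2, which fell from 1666 ± 30.1 to 1265 ± 22.6 FPKM. The part of these marker differences in the results below was not tested. The summed markers of neutrophils, fibroblasts and lymphocytes stayed under 0.33 FPKM in every library, with Ly6g, Mpo, Col1a2, Dcn and Cd3e among those at 0. In bulk samples, fewer cells of a type and less RNA per cell cannot be told apart.

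Sequence upstream of the 4 called genes is shown because the genes differ in the promoter letters they carry. They also differ in whether a neighbour on the opposite strand starts close by. Promoter sequences of 250 bases before the RefSeq start (GRCm38.p6) were found for 7 of the 9 genes, all except Idh3a and Sdhc. The stretches below stop where an exon of the gene itself or of a neighbour begins. Slc25a1 is shown at chr16:17928220-17928469, minus strand, with each GGGCGG, the motif of SP1, in capitals on either strand. Acod1 is shown at chr14:103046762-103046976, plus strand, with a loose form of the NF-kB motif (3 G and 2 C around any 5 bases) in capitals. Sdhd is shown at chr9:50603850-50603909, minus strand, with CGGAAG, the core of many ETS sites, in capitals and read on the opposite strand. Sdha is shown at chr13:74350281-74350308, minus strand, with the motif of NRF1 in capitals.
Slc25a1: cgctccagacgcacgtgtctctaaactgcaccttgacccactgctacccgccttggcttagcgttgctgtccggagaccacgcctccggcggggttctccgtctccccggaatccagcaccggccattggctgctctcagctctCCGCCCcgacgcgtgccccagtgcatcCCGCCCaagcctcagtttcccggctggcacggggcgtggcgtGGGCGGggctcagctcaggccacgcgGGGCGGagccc
Acod1: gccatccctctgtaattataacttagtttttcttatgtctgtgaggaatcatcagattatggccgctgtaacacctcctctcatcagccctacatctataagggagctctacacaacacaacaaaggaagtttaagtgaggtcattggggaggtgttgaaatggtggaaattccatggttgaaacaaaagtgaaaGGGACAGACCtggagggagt
Sdhd: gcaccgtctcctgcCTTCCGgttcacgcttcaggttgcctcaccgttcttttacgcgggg
Sdha: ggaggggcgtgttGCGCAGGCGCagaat

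Slc25a1 held 4 copies of GGGCGG in its 250 bases, a motif present in 32.7% of the 32851 promoters searched on both strands, and Sdhb held 3, Cs and Idh2 2 each, and Acod1, Sdha and Sdhd none. The NRF1 motif was rarer, in 3.74% of promoters, and occurred 3 times before Sdha and once before Sdhd, and in none of the other 5. Of these copies, 2 before Sdha and the 1 before Sdhd lay outside the printed stretches. The E-box CACGTG, found in 6.02% of promoters, occurred once before Slc25a1 and in no other member searched. TATAAA, in 12.4% of promoters, occurred only before Acod1, within the 35 bases left out above because GENCODE starts the gene upstream of RefSeq. The loose NF-kB motif was in 45.8% of promoters and was found before 5 members (Idh2, Slc25a1, Acod1, Cs and Sdhb), and its copies can overlap those of SP1. The ETS core was in 13.6% of promoters and occurred once each before Sdhd and Idh2. CCAAT was in 33.8% and was found before all members searched but Sdhd, and a form of the interferon-stimulated response element was in 2.98% and before none. These matches describe letters in a window and are not evidence of binding, and other forms of each motif were not searched or marked.

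The order of levels was the same in both groups at its ends. In control libraries Acod1 had the highest FPKM of the 9 genes, above 99.6% of all tested genes, followed by Sdhd, Cs, Sdha, Idh2, Sdhb, Sdhc and Idh3a, and Slc25a1 had the lowest, above 78.4% of tested genes. Sdha at 72.1 ± 0.71 FPKM (SD, n = 3) and Idh2 at 71.1 ± 2.9 FPKM overlapped in control libraries. In PGAM5 KD libraries Sdhc at 58.6 ± 3.1 FPKM and Sdhb at 58.5 ± 5.1 FPKM overlapped instead, and Idh2 at 71.1 ± 0.75 FPKM stood above Sdha at 67.5 ± 0.59 FPKM.

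**Figure D1:**
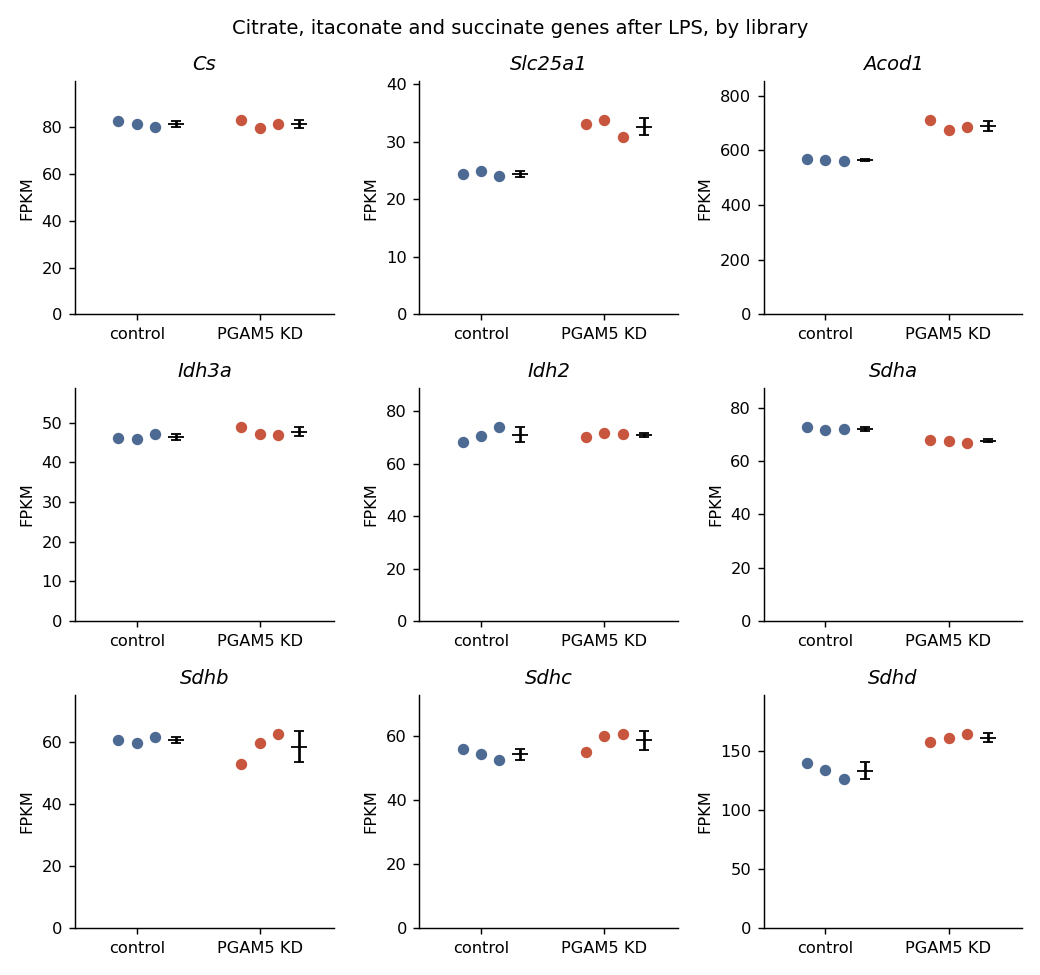
FPKM of the 9 genes on linear axes that start at 0, 1 point per library (blue control, red PGAM5 KD) with the mean and SD of 3 libraries beside the points. Slc25a1, Acod1 and Sdhd sit higher and Sdha slightly lower in all 3 PGAM5 KD libraries than in all 3 control libraries.

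Citrate synthase (Cs, ENSMUSG00000005683, chr10:128337734-128362479, plus strand) did not differ in a measurable way. Its FPKM was 82.6, 81.2 and 80.0 in control and 83.2, 79.8 and 81.4 in PGAM5 KD libraries, so the groups overlapped fully. The log2 fold change was 0.0034 (SE 0.031, 95% interval -0.071 to 0.078, adjusted p = 0.95). Of the 9 genes, Cs was the only one whose coding sequence resembled that of other genes by the criteria used, Csl (92.7% identity over 1392 bases) and the pseudogene Gm48254, and these held at most 1 fragment in any library.

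Slc25a1 (ENSMUSG00000003528, chr16:17925223-17928219, minus strand) exchanges citrate in the matrix for malate in the cytosol and so supplies cytosolic acetyl-CoA. It was at 24.4, 24.9 and 24.0 FPKM in control and at 33.1, 33.8 and 30.9 FPKM in PGAM5 KD libraries. Every PGAM5 KD library stood above every control library. The log2 fold change was 0.40 (SE 0.044, 95% interval 0.30 to 0.51, adjusted p = 0.00085), and the call held in all 19 alternatives, at 0.29 to 0.44. Acly, which cleaves exported citrate into acetyl-CoA and oxaloacetate, did not pass the test, at 65.7 ± 0.41 FPKM in control and 62.4 ± 2.7 FPKM in PGAM5 KD libraries (log2 fold change -0.075, adjusted p = 0.19), although it was called lower under scaling to TPM (-0.15) and under quantile normalization. Within each library, Cs was at 3.33 ± 0.064 times Slc25a1 in control and at 2.50 ± 0.14 times in PGAM5 KD cells.

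Acod1 (ENSMUSG00000022126, chr14:103046977-103056573, plus strand), the cis-aconitate decarboxylase formerly named Irg1, was at 567, 566 and 561 FPKM in control and at 711, 675 and 685 FPKM in PGAM5 KD libraries. The lowest PGAM5 KD library was thus above the highest control library by far more than the spread of the controls. The log2 fold change was 0.29 (SE 0.028, 95% interval 0.22 to 0.36, adjusted p = 0.0005). With 27016 to 43808 fragments per library, counting error was small, and the SD of PGAM5 KD libraries, 2.72% of their mean, was 5.32 times what counting alone gives, against 0.953 times in control. Under quantile normalization, which gives every library the same distribution of values, the call was lost (log2 fold change 0.026, adjusted p = 0.71), while it held in the other 18 alternatives at 0.20 to 0.31.

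The 3 genes whose log2(FPKM + 1) followed that of Acod1 most closely over the 6 libraries were A430103D13Rik, Mlkl and Eef1a1 (Pearson r 0.998, 0.998 and 0.997). For Slc25a1 they were Mtmr2, Pcbp1 and Hspa4l (0.999, 0.998 and 0.998). With 2 groups of 3 libraries such values are set mainly by the group means, and 53 tested genes were above 0.99 for Acod1 and 26 for Slc25a1.

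Neither isocitrate dehydrogenase gene among the members passed the test. Idh3a (ENSMUSG00000032279, chr9:54586334-54604661, plus strand), the catalytic subunit of the NAD-dependent enzyme of the cycle, was at 46.2, 45.9 and 47.2 FPKM in control and at 49.0, 47.2 and 47.0 FPKM in PGAM5 KD libraries (log2 fold change 0.038, 95% interval -0.041 to 0.12, adjusted p = 0.43). Idh2 (ENSMUSG00000030541, chr7:80094846-80115392, minus strand), the mitochondrial NADP-dependent enzyme, was at 68.4, 70.7 and 74.2 FPKM in control and at 70.3, 71.7 and 71.4 FPKM in PGAM5 KD libraries (log2 fold change 0.0006, 95% interval -0.088 to 0.090, adjusted p = 0.99). For both genes the groups overlapped. Against the flat level of Idh3a, Acod1 stood at 12.2 ± 0.25 times in control and 14.5 ± 0.14 times in PGAM5 KD cells.

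Among other genes of isocitrate and aconitate metabolism, Idh1 was higher, Aco1 lower, and Idh3b and Idh3g did not pass the test. Idh1, the cytosolic and peroxisomal NADP-dependent enzyme, rose from 50.1 ± 1.2 to 55.9 ± 0.88 FPKM (log2 fold change 0.16, SE 0.034, adjusted p = 0.013). That call was lost under quantile normalization, scaling to TPM and both corrections for GC content and exon length. The regulatory subunits Idh3b and Idh3g had log2 fold changes of 0.11 (adjusted p = 0.076) and -0.075 (adjusted p = 0.45). Aco1, the cytosolic aconitase that also acts as an iron regulatory protein, was at 16.2, 15.3 and 16.9 FPKM in control and fell to 12.1, 12.2 and 13.7 FPKM (log2 fold change -0.33, SE 0.063, adjusted p = 0.0086), a call that held in all 19 alternatives.

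**Figure D2:**
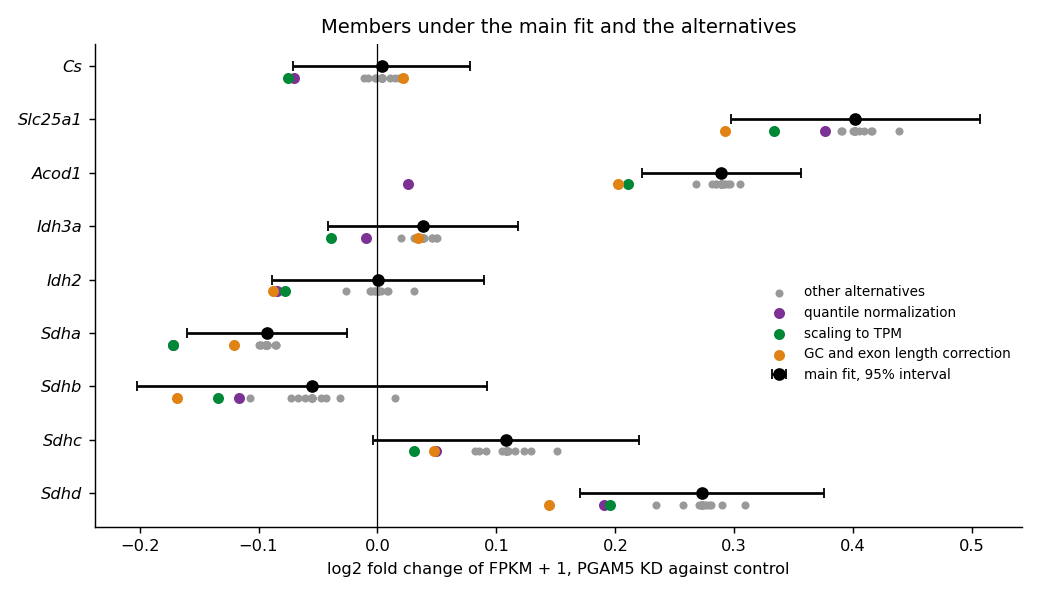
Log2 fold change of FPKM + 1 between PGAM5 KD and control libraries for the 9 genes. Black points and bars are the main estimate and its 95% interval, and the smaller points below them are the alternatives, with quantile normalization (purple), scaling to TPM (green) and correction for GC content and exon length (orange) in colour. Purple and green coincide for Sdha at -0.17, Acod1 stands near 0 under quantile normalization only (0.026), and Sdhd is lowest under the GC and length corrections (0.14).

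Of the 4 genes of succinate dehydrogenase, Sdhd was higher, Sdha lower, and Sdhb and Sdhc did not pass the test. Sdha (ENSMUSG00000021577, chr13:74322254-74350280, minus strand), the flavoprotein that binds succinate, was at 72.8, 71.4 and 72.0 FPKM in control and at 68.0, 67.7 and 66.9 FPKM in PGAM5 KD libraries. Its groups did not overlap, and its SD was below the counting error in both groups (0.745 and 0.673 times it). The log2 fold change was -0.093 (SE 0.029, 95% interval -0.16 to -0.025, adjusted p = 0.046). The call was lost without any 1 of the 6 libraries (adjusted p from 0.065 to 0.12), and in 10 of the 19 alternatives in all. Scaling to TPM and quantile normalization moved the log2 fold change to -0.17 each.

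Sdhb (ENSMUSG00000009863, chr4:140961203-140979193, plus strand), the iron-sulfur subunit that passes electrons from the flavin towards ubiquinone, was at 60.7, 59.7 and 61.7 FPKM in control and at 52.9, 59.9 and 62.8 FPKM in PGAM5 KD libraries. One PGAM5 KD library, replicate 1, stood below the other 5 and the other 2 overlapped the controls. The SD of the PGAM5 KD libraries was 8.67% of their mean, 4.56 times the counting error. The log2 fold change was -0.055 (SE 0.062, 95% interval -0.20 to 0.092, adjusted p = 0.54), and without PGAM5 KD replicate 1 it turned to 0.015. It was -0.17 with the GC and length correction (adjusted p = 0.061) and -0.13 under scaling to TPM, and passed the test under neither.

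Sdhc (ENSMUSG00000058076, chr1:171127165-171150603, minus strand) and Sdhd (ENSMUSG00000000171, chr9:50596357-50603812, minus strand) anchor the complex in the inner membrane and form its ubiquinone site. Sdhc was at 55.8, 54.3 and 52.5 FPKM in control and at 55.0, 59.9 and 60.7 FPKM in PGAM5 KD libraries, where replicate 1 again was the low one and lay within the controls. It did not pass the test (log2 fold change 0.11, SE 0.047, adjusted p = 0.13), and without that library it did (0.15, adjusted p = 0.035). Its log2 fold change was smaller under scaling to TPM (0.031, adjusted p = 0.63), quantile normalization (0.049) and the GC and length correction (0.048).

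Sdhd was at 140.5, 134 and 127 FPKM in control and at 158, 162 and 165 FPKM in PGAM5 KD libraries. All PGAM5 KD libraries stood above all control libraries, replicate 1 included. The log2 fold change was 0.27 (SE 0.043, 95% interval 0.17 to 0.38, adjusted p = 0.0040). Sdhd has the shortest exons of the 9 genes, 1231 bases in all, and correcting for GC content and exon length reduced the value to 0.14 (adjusted p = 0.032). With the replicate block added to that correction the call was lost (adjusted p = 0.067).

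Of the summed FPKM of the 4 subunits, Sdhd made up 41.7% ± 1.1 (SD, n = 3) in control and 46.7% ± 0.53 in PGAM5 KD libraries. The share of Sdha was 22.5% ± 0.48 and 19.5% ± 0.79, and that of Sdhb 18.9% ± 0.70 and 16.9% ± 0.93. The groups did not overlap for these 3 shares (exact two-sided permutation p = 0.1, the smallest that 3 libraries against 3 allow). The share of Sdhc was 16.9% in both groups, with a larger SD in PGAM5 KD (0.37) than in control (0.10), and overlapped (exact permutation p = 1). The 4 shares of a library add up to the whole, so they are not independent. The assembly factors of complex II did not pass the test, with log2 fold changes of 0.063 for Sdhaf1, 0.048 for Sdhaf2 and 0.072 for Sdhaf4 (adjusted p from 0.61 to 0.72), and Sdhaf3 was under the filter on low values. Sdhaf1 shares 69.6% of its exon bases with a gene on the opposite strand that was listed at 0 in all libraries.

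**Figure D3:**
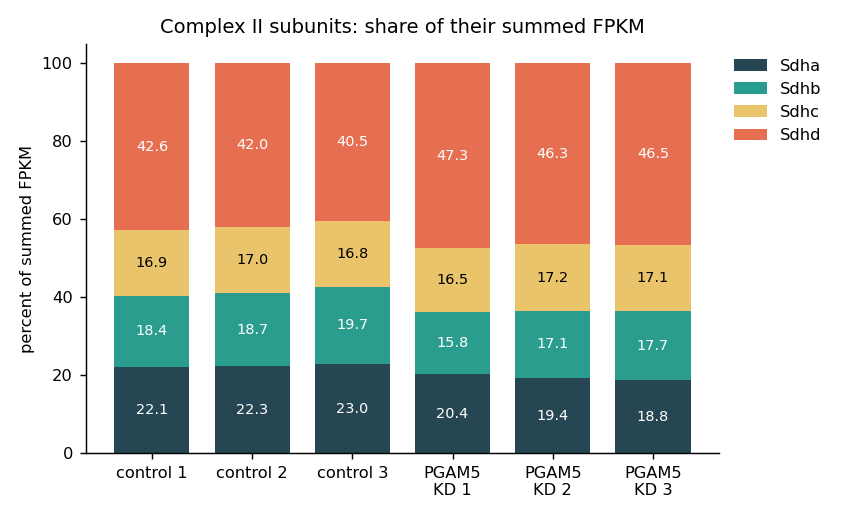
Percent of the summed FPKM of Sdha, Sdhb, Sdhc and Sdhd taken by each subunit, 1 stacked bar per library from 0 to the whole, with the percent written in each segment. The Sdhd segment is larger in each PGAM5 KD library than in each control library, and the Sdhc segment is of about the same size throughout.

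Sdhd and Sdha each begin next to a gene that runs the other way. The start of Timm8b, a chaperone of the mitochondrial intermembrane space, lies 98 bases from that of Sdhd on the opposite strand. Timm8b was at 58.4, 59.1 and 47.6 FPKM in control and at 73.0, 68.3 and 79.1 FPKM in PGAM5 KD libraries, without overlap (log2 fold change 0.41, SE 0.092, adjusted p = 0.015). Higher calls near Sdhd were not limited to Timm8b. Il18 (log2 fold change 1.01, 14517 bases away), Dlat (0.22, 30821 bases) and Bco2 (1.04, 41176 bases) were also called higher. Nkapd1, 1428 bases away, did not pass (0.24, adjusted p = 0.051). Ccdc127 starts 29 bases from Sdha on the opposite strand. It was at 4.55, 5.19 and 4.51 FPKM in control and at 4.23, 4.68 and 4.95 FPKM in PGAM5 KD libraries, which overlapped (log2 fold change -0.033, SE 0.079, adjusted p = 0.78). The printed Sdhd and Sdha stretches lie between the starts of these gene pairs. Timm8b and Ccdc127 were named for their position, and all neighbours here were named after their values were seen.

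Ratios between the 9 genes within a library do not depend on the factor by which a library is scaled, although differences in GC content and length act on them. Of the 36 ratios, 24 did not overlap between the groups (66.7%), against 45.6% of all pairs of tested genes above 0 in every library. Each of the 9 genes enters 8 of the 36 ratios, so the ratios are not independent observations. Each of the 24 reached the smallest exact two-sided permutation p of 0.1, or 0.15 after Benjamini-Hochberg adjustment over the 36, so none passes a threshold of 0.05. Slc25a1 was higher against 7 of the other 8 genes, and only its ratio to Sdhd overlapped. Acod1 was higher against 6, lower against Slc25a1, and at 4.23 ± 0.20 and 4.27 ± 0.20 times Sdhd in control and PGAM5 KD libraries (log2 difference 0.015, exact permutation p = 0.8). Sdhd was higher against the 6 genes other than Slc25a1 and Acod1, and Sdha was lower against all genes but Sdhb. The ratio of Acod1 to Sdha, of the itaconate enzyme to the subunit with the succinate site, went from 7.78, 7.92 and 7.80 in control to 10.46, 9.98 and 10.2 in PGAM5 KD libraries, a log2 difference of 0.38.

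**Figure D4:**
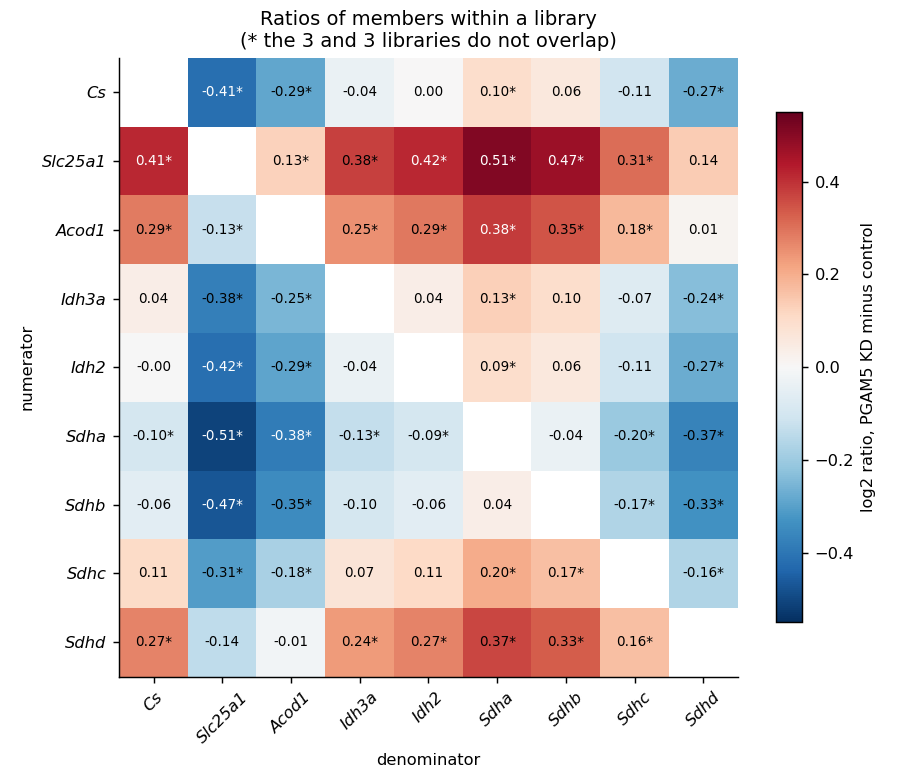
Difference in the log2 ratio of each pair of genes within a library, PGAM5 KD minus control, with the row gene over the column gene; red is higher and blue lower in PGAM5 KD, and an asterisk marks ratios whose 3 and 3 libraries do not overlap. The Slc25a1, Acod1 and Sdhd rows are mostly red and the Sdha row is blue, with no asterisk for its ratio to Sdhb.

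Sucnr1, the cell surface receptor for succinate, was listed among the other pathway genes and lay under the filter, with a mean of 0.62 FPKM. It was at 1.48, 1.36 and 0.81 FPKM in control libraries, from 44, 45 and 26 fragments, and at 0, 0.067 and 0 FPKM in PGAM5 KD libraries, from 0, 2 and 0 fragments. Every control library was above every PGAM5 KD library. Over the groups, 115 fragments stood against 2, a ratio per fragment sequenced of 0.016 (exact 95% interval 0.0019 to 0.058, counting error only). With no filter on low values, limma gave a log2 fold change of -1.10 on the log2(FPKM + 1) scale (adjusted p = 0.0053). Sucnr1 was picked out after its values were seen.

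Of 47 other genes of the cycle, its entries and its carriers, 40 passed the filter, and 11 were higher and 5 lower (40% called, against 31.7% of all tested genes), with a median log2 fold change of 0.076 against 0.013 over all tested genes. The excess over all tested genes depended on single libraries. Without PGAM5 KD replicate 3, 9 of the 40 were called, against 2340 of all 10540 tested genes. Without PGAM5 KD replicate 2 it was 10 of the 40, against 2446. The balance of directions depended on the scaling, with 5 higher and 10 lower under TPM and 8 and 8 under quantile normalization. Of 13 tested genes of pyruvate entry, 5 were higher and none lower (38.5% called, near the 31.7% of all tested genes). Under scaling to TPM 3 were higher, and Pdhb and Pdp2, named after their values were seen, were called lower (-0.19 and -0.25). Among these, Pdk3 rose from 17.9 ± 0.31 to 23.9 ± 1.0 FPKM (log2 fold change 0.40) and Pdk1 from 10.9 ± 0.75 to 15.0 ± 1.6 FPKM (0.43), and both encode kinases that inhibit pyruvate dehydrogenase. Pcx, which makes oxaloacetate from pyruvate, rose from 4.52 ± 0.32 to 5.66 ± 0.35 FPKM (0.27), a call lost without control replicate 1 or 3, without PGAM5 KD replicate 2 or 3, and under no filter and scaling to TPM. The calls of Pdk1 and Pdk3 held in all 19 alternatives. That of Dld, also 1 of the 5 and named after its values were seen, held in only 8 of the 19 (log2 fold change 0.14, adjusted p = 0.043).

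Among the mitochondrial carriers, 2 of the 4 tested besides Slc25a1 were higher and none lower, where 16.8% of all tested genes were higher. They were Slc25a12, an aspartate and glutamate carrier (log2 fold change 0.32, adjusted p = 0.0029), and Slc25a11, which exchanges malate and 2-oxoglutarate (0.30, adjusted p = 0.0061), and both calls held in all 19 alternatives. Slc25a11 shares 8.92% of its exon bases with Rnf167 on the opposite strand. Slc25a10, the dicarboxylate carrier that moves succinate and malate, was at 19.9 ± 0.15 and 20.7 ± 1.3 FPKM (adjusted p = 0.52).

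Of the 4 tested genes of glutamine and aspartate entry, 3 were lower, where 14.9% of all tested genes were lower. Got1, the cytosolic aspartate aminotransferase, fell from 49.1 ± 2.1 to 39.7 ± 1.2 FPKM (log2 fold change -0.30, adjusted p = 0.0027), a call that held in all 19 alternatives. Glud1, which turns glutamate into 2-oxoglutarate, fell from 87.5 ± 0.89 to 80.6 ± 1.7 FPKM (log2 fold change -0.12, adjusted p = 0.025). It lost its call in 7 alternatives, with any library left out except PGAM5 KD replicate 1, without the mean-variance trend and with the replicate block.

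Between 2-oxoglutarate and succinate, among the subunits of succinyl-CoA ligase, Sucla2 was called lower and Suclg1 higher, and the difference between them was not tested. Sucla2, the subunit of the ATP-forming enzyme, fell from 20.7 ± 1.1 to 16.7 ± 1.5 FPKM (log2 fold change -0.30, adjusted p = 0.019), and Suclg1, the subunit common to both forms and named after its values were seen, rose from 24.3 ± 1.5 to 28.6 ± 1.1 FPKM (0.23, adjusted p = 0.020). Without PGAM5 KD replicate 2 or 3 both calls were lost. Sucla2 also lost its call without control replicate 3 and with the replicate block, and Suclg1 under scaling to TPM and under the replicate block with the GC and length correction. Suclg2, the subunit of the GTP-forming enzyme, did not pass (0.027, adjusted p = 0.70). Of 2 tested genes linked to the breakdown of itaconate, Clybl, a citramalyl-CoA lyase, rose from 4.71 ± 0.085 to 5.76 ± 0.51 FPKM (log2 fold change 0.24, adjusted p = 0.041), a call lost in 11 of 19 alternatives, among them without each library except PGAM5 KD replicate 1. Auh did not pass (0.20, adjusted p = 0.22).

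**Figure D5:**
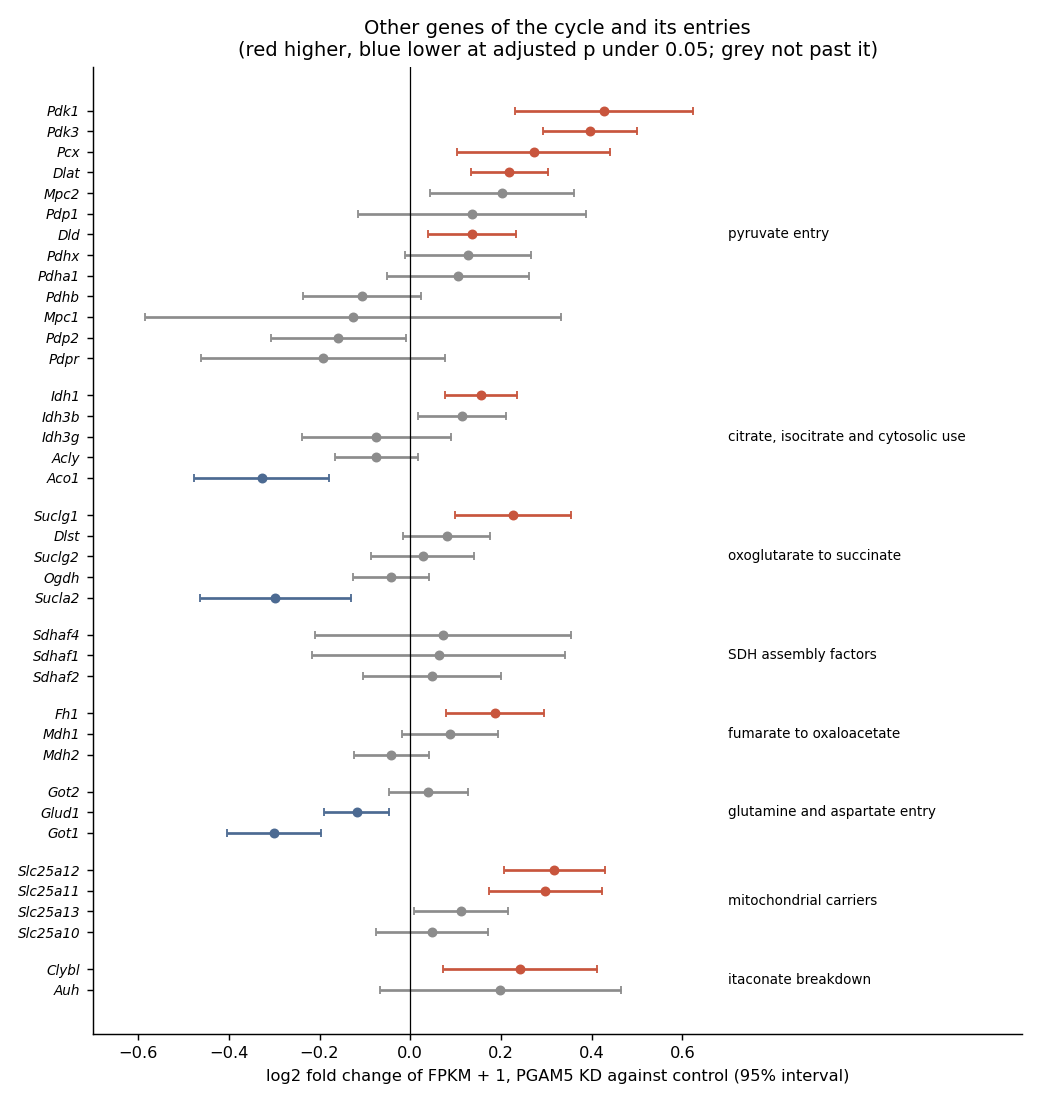
Log2 fold change of FPKM + 1 with its 95% interval for tested genes of the pathway list, grouped by step (names at the right). Red genes are higher and blue genes lower in PGAM5 KD libraries at an adjusted p-value under 0.05. Pdk1 and Pdk3 at the top and Slc25a12 and Slc25a11 among the carriers are red, and Aco1, Sucla2, Got1 and Glud1 are blue.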

How the data were processed

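RNA-seq of 6 libraries of LPS-treated iBMDMs was used, 3 control and 3 PGAM5 KD, grouped by their labels. Whether replicates were separate cultures or infections is not given, so p-values measure the spread between these libraries, which may be technical. The authors deposited FPKM, 1 table per library. Per the submitters' processing notes, HISAT2 2.0.5, featureCounts 1.5.0-p3 and mm10 were used. The labels leave it unsettled whether strand was kept, so reads of overlapping opposite genes cannot be told apart. Names, positions and lengths of genes were taken from GENCODE M21 (GRCm38), which held 54495 of 54532 identifiers. FPKM times exon length gave whole fragments within 0.01 for 96.8% to 97.1% of values under 1000 fragments, which gave the depth. Counting intervals cover counting error only.

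The test was limma 3.58.1 (R 4.3.3, linear model and moderated statistics with trend) on log2(FPKM + 1) of the 10540 genes that averaged 1 FPKM or more (two-sided, Benjamini-Hochberg over all genes tested). Fold changes on this scale understate the change of low genes. Ratios and shares were compared with exact permutation tests. Coding sequences were compared with blastn 2.17.0 (at least 85% identity over 200 bases). Python 3.11.15, pandas 2.3.3, scipy 1.17.1 and matplotlib 3.10.9 were used. The fit was tested on simulated data.

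The alternatives were a pseudocount of 0.1, no filter, a minimum mean of 5 FPKM, quantile normalization, TPM, median centring, a fit without the mean-variance trend, array weights, the replicate block, correcting for GC content and exon length (loess, span 0.3) without and with the block, limma-voom on recovered fragments, protein-coding genes only, values summed with resembling genes, and leaving out each library. Named besides the 9 genes were Pgam5, up to 6 called genes of the pathway list per direction, genes sharing a reaction or subunit with a member, overlapping or resembling genes, and the 3 genes most like Acod1 and Slc25a1. A few genes of these lists are not reported here. Others are marked as named after their values were seen. The members and lists were chosen with earlier results of these data known.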

Additional observations from a re-analysis of the deposited data

How the results depend on the processing

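Slc25a1 was called in all 19 alternatives, Acod1 in all except quantile normalization (log2 fold change 0.026), and Sdhd in all except the replicate block with the GC content and exon length correction (0.14). Sdha stayed negative in all 19 and lost its call in 10. The values near 0 changed sign. Cs went to -0.071 under quantile normalization, -0.075 under scaling to TPM, -0.0021 with array weights, -0.0010 with voom and -0.012 to 0.018 with a library left out. Idh3a went to -0.0099 and -0.039 under quantile normalization and TPM. Idh2 went to -0.084 and -0.078 under these, to -0.088 under the GC and length correction without and with the block, to -0.0064 with voom and to -0.026 to 0.031 with a library left out. Sdhb ran from -0.11 to 0.015 with a library left out. The causes were not tested.

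The number of differentially expressed genes was 139, and 261 with a pseudocount of 0.1, 76 with a mean FPKM of at least 5, 233 under TPM and 278 with voom. Of the genes called, 52.9% were higher, and 32.3% under TPM, where the median of all genes was -0.060. Same-numbered control and PGAM5 KD libraries did not deviate together (correlations -0.020, 0.016 and -0.052), so the numbers were not taken to pair them. The replicate block called 2652 genes in place of 3346 and 3 of the 9 members, and with the GC and length correction 2195 genes and 2 members. Leaving out a library gave 9 to 15 called genes of the pathway list in place of 16, with 10 without PGAM5 KD replicate 2 and 9 without PGAM5 KD replicate 3. Over all tested genes it gave 2340 to 2858 in place of 3346. The intervals printed for single genes cover the spread between 3 libraries per group and not the choice of scaling.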
